A study of Mus musculus with 4 samples.

Results

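The cardiomyocyte (CM) fraction of 2 wild-type (WT) mouse hearts was compared with the non-cardiomyocyte (NCM) fraction of the same hearts. Wells of a single-well chip were taken when they held at least 10000 unique molecular identifiers (UMIs) and 300 detected genes, and the deposited well annotation gave each well's animal and fraction. This kept 1879 of 2124 WT wells that were not controls, out of 3990 kept wells in the whole series. They were 210 CM and 692 NCM wells of animal WT1, and 274 CM and 703 NCM wells of animal WT2. All wells of an animal and fraction were added up, and the resulting 4 sums were compared as CM against NCM within each animal.

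Both animals are C57BL/6 mice with the genotype WT, and the other 2 animals of the series are Mst1/2-deficient (KO). The labels give no age, sex, injury, drug treatment, allele or Cre driver for either genotype. Heart cell suspensions were spun at low speed, which pellets the large cardiomyocytes and leaves smaller cells in suspension, and polyadenylated RNA was sequenced. Each WT chip held a single fraction and both WT animals, so the chip and the fraction cannot be told apart.

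Cardiomyocytes are the contractile cells of the heart. They fill most of the muscle's volume, are packed with myofibrils and mitochondria, and draw most of their energy from fatty acids. Each beat starts with calcium entry through the L-type channel, which opens the ryanodine receptor of the sarcoplasmic reticulum. The SERCA pump then returns the calcium under the control of phospholamban. Most other cells of the heart are fibroblasts, which lay down matrix, endothelial cells of capillaries and larger vessels, mural cells and resident or infiltrating leukocytes.

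The sums held 31387274 and 46921518 UMIs in the CM fraction and 92741821 and 109890038 in the NCM fraction, for WT1 and WT2. The median CM well was deeper (98066 and 129606 UMIs) than the median NCM well (64289.5 and 76008). At 10000 UMIs per well, the median number of genes was 1333 and 1348 in CM wells and 1373 and 1173 in NCM wells. The 2 WT chips had 143 barcodes in common among their kept wells. The 5 negative control wells of the CM chip had 37 to 1757 UMIs, with a median of 202. Cardiomyocyte markers made up 3.86% of their summed UMIs, in which the deepest well weighs most. The 5 of the NCM chip had a median of 134 UMIs and a share of 0.283% in their sum. Where the RNA of the control wells came from, and what part such RNA has in a low level in the other wells, was not tested.

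The wells labelled CM carried cardiomyocyte RNA and most wells labelled NCM carried little. As cardiomyocyte markers served 15 muscle genes (Myh6, Myl2, Myl3, Tnnt2, Tnni3, Tnnc1, Actc1, Ttn, Mybpc3, Pln, Ryr2, Actn2, Csrp3, Mb and Ckm). They made up 4.11 and 5.80% of all UMIs in the CM sums and 0.130 and 0.331% in the NCM sums. The ranges of the fractions lay far apart, and WT2 was above WT1 in both. With 2 pairs the smallest two-sided exact paired p is 0.5, so shares carry no test.

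In single wells the markers reached 1% of UMIs in 204 of 210 and 273 of 274 CM wells. These are 97.1% (95% Clopper-Pearson interval 93.9 to 98.9) and 99.6% (98.0 to 100.0), with intervals that cover counting error only. In the NCM fraction 18 of 692 wells of WT1 (2.60%, 1.55 to 4.08) and 77 of 703 wells of WT2 (10.95%, 8.74 to 13.5) reached it. Many NCM wells lay close to this level, with 30 of WT1 and 68 of WT2 within 1.5 times of it on either side. The median NCM well had 0.0670 and 0.124% cardiomyocyte marker UMIs, and the median CM well 4.15 and 5.61%.

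**Figure D1:**
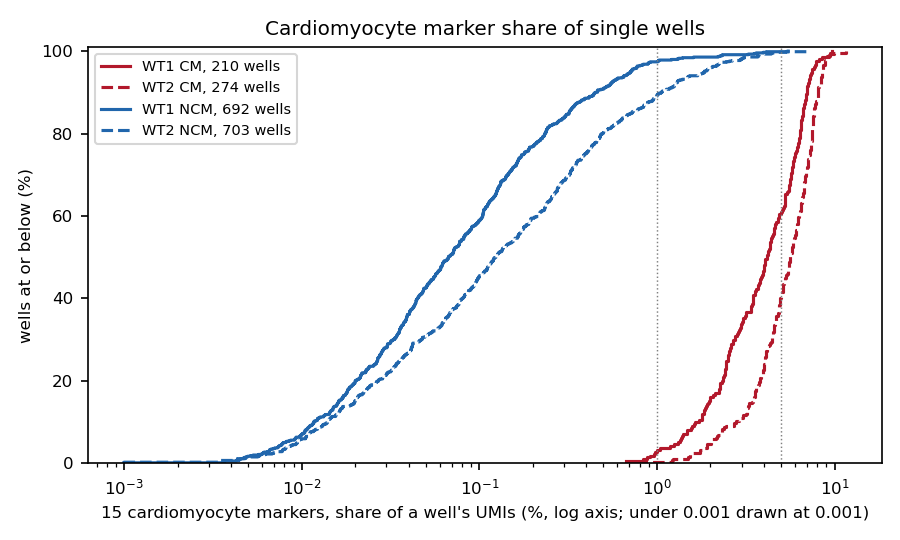
Cumulative share of wells (vertical axis, %) by the share of a well's UMIs from the cardiomyocyte markers (horizontal axis, %, log scale), for the CM (red) and NCM (blue) wells of WT1 (solid) and WT2 (dashed); dotted lines stand at 1 and 5%. The curves of the fractions cross the 1% line at opposite ends of the vertical axis, and the WT2 NCM curve has a longer right tail than that of WT1.

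RNA of other cell types was found in both fractions, in unequal amounts. Outside mitochondrial and haemoglobin genes, fibroblast markers made up 0.339 and 0.270% of UMIs in the CM sums and 1.86 and 1.48% in the NCM sums. Macrophage markers made up 0.739 and 0.232% against 0.890 and 1.04%. Vascular endothelial markers made up 0.162 and 0.146% against 0.199 and 0.440%. Fibroblast markers were thus several times lower in the CM sums of both animals, while endothelial markers of WT1 lay close together in the fractions and the macrophage share of the WT1 CM sum was near that of the NCM sums. In sums of wells, fewer cells of a type and less RNA per cell cannot be told apart.

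In the CM fraction macrophage and fibroblast RNA was gathered in few wells. Wells with at least 1% macrophage markers on the same scale numbered 28 of 210 in WT1 and 10 of 274 in WT2, and held 85.8 and 66.7% of the macrophage marker UMIs of their sums. Of UMIs outside mitochondrial and haemoglobin genes, these wells still had a median of 3.50 and 4.63% cardiomyocyte markers, against 8.20 and 9.76% over all CM wells, and a median of 192381 and 178596 UMIs. Likewise 17 and 22 CM wells with at least 1% fibroblast markers held 65.8 and 77.3% of those UMIs. The 13 and 5 CM wells with at least 1% vascular endothelial markers held only 22.8 and 15.9% of theirs. Cardiomyocyte markers took a smaller share of UMIs in the wells with macrophage markers than in the median CM well. These wells were also deeper, and the amount of cardiomyocyte RNA per well was not compared. No doublet caller was run, and the part of mixed wells in the differences below was not tested.

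**Figure D2:**
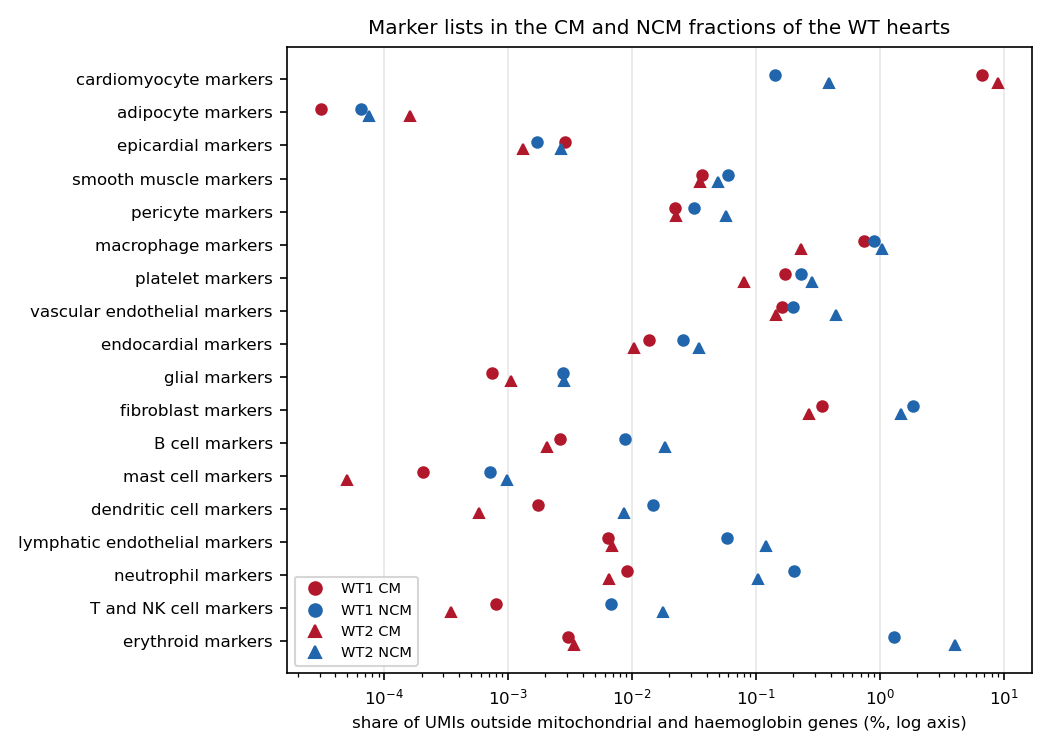
Share of UMIs outside mitochondrial and haemoglobin genes (horizontal axis, %, log scale) for 18 marker lists (rows) in the CM (red) and NCM (blue) sums of WT1 (circles) and WT2 (triangles). Cardiomyocyte markers lie to the right in CM, erythroid, T and NK cell, neutrophil and fibroblast markers to the right in NCM, and smooth muscle, pericyte and epicardial markers close together or mixed.

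Across the genome, 16450 genes passed the filter on low counts and 1974 of them (12%) differed between the fractions in edgeR's quasi-likelihood test with the animal as a block, at a Benjamini-Hochberg adjusted p under 0.05. Such genes are referred to as called. Higher in CM were 1339 genes (8.14%) and lower were 635 (3.86%), and 412 and 111 of these differed by more than 4 on the log2 scale. Values per gene are CPM (UMIs of the gene relative to the total of its sum) scaled by the trimmed mean of M values (TMM), and a log2 difference is CM minus NCM. The median gene had a log2 difference of -0.15. Scaled by plain library totals, of which the 100 most abundant genes took 60.3 and 62.1% in CM and 36.5 and 40.8% in NCM, the median gene had -1.22 and the split became 886 higher and 4807 lower. The median shift between the scalings was -1.07, so differences are read against the median gene. With a single WT animal, assumed to vary like the 2 KO animals fitted beside it, 232 genes were called without WT1 and 347 without WT2, of which 228 and 342 were among the 1974 in the same direction.

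The log2 ratios of CM to NCM in the animals had a Pearson's r of 0.715 and Spearman's rho of 0.574 over all 16450 genes. Over the 6920 genes with a mean of at least 10 CPM these were 0.862 and 0.769. The correlation is across genes, which are not independent. The CM sums of both animals came from the same chip, and their NCM sums from the other chip.

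**Figure D3:**
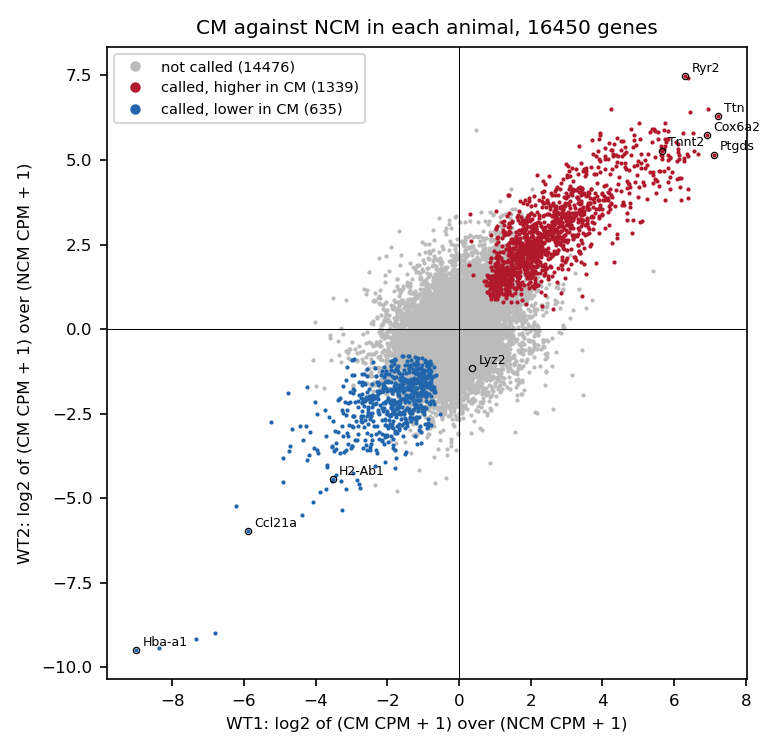
Log2 ratio of CM to NCM in WT1 (horizontal axis) and WT2 (vertical axis), with 1 CPM added to each value, for the 16450 tested genes; red and blue points are called higher and lower in CM and grey points are not called. Muscle genes such as Ttn, Ryr2 and Cox6a2 lie at the upper right, haemoglobin and Ccl21a at the lower left, and Lyz2 on opposite sides of 0 in the animals.

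Contractile protein genes were far higher in CM. All 15 cardiomyocyte markers were called higher, where 8.14% of all tested genes were, with a median log2 difference of 5.55 and a range of 4.58 to 7.24. Myh6, the fast alpha heavy chain that drives the adult mouse ventricle, had 3767 and 7875 CPM in the CM sums of WT1 and WT2 and 29.3 and 86.3 in the NCM sums. Both CM sums were far above both NCM sums. Its log2 difference was 6.76 ± 0.31 (SE, adjusted p = 0.00017). Ttn, the giant spring of the sarcomere, had 4906 and 8301 CPM in the CM sums of WT1 and WT2 and 32.1 and 105 in the NCM sums, and its log2 difference was 6.78 ± 0.37 (SE, adjusted p = 0.00018). Tnnt2, the troponin subunit that binds tropomyosin, had 9884 and 14734 CPM in the CM sums of WT1 and WT2 and 195 and 379 in the NCM sums and differed by 5.47 ± 0.29 (SE, adjusted p = 0.00018). The troponin inhibitory subunit Tnni3 had 8154 and 12124 CPM in the CM sums of WT1 and WT2 and 115 and 339 in the NCM sums. In each of these genes WT2 stood above WT1 in both fractions.

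Of 14 tested thick filament genes, 12 were called higher, with a median of 5.82. Myh7, the slow beta heavy chain, had 115 and 257 against 1.05 and 4.27 CPM and the ventricular light chain Myl2 5245 and 9751 against 74.6 and 218 CPM, where CM is given before NCM and WT1 before WT2. Their log2 differences were 6.33 ± 0.37 (SE, adjusted p = 0.0002) and 5.81 ± 0.32 (SE, adjusted p = 0.00018). Obsl1 and Mybphl did not pass, at 2.61 and 3.92. All 25 thin filament and Z-disc genes were called higher, with a median of 5.09 and a range of 3.81 to 7.01. They run from the actin Actc1 (5.21 ± 0.42, adjusted p = 0.00032) and alpha-actinin Actn2 (5.71 ± 0.39, adjusted p = 0.00024), which anchors actin at the Z-disc, to Ldb3 (6.56 ± 0.40, adjusted p = 0.0002), a Z-disc scaffold also called Cypher. Tpm1, the tropomyosin that shields the myosin sites of actin, had 11415 and 15866 against 353 and 855 CPM and differed by 4.61 ± 0.32 (SE, adjusted p = 0.00024). Without WT1, 11 thick and 15 thin filament genes passed, and without WT2, 12 and 24.

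Among 444 called genes with at least 100 CPM in both CM sums, the 12 of largest difference were, in falling order, Sln, Ryr2, Ttn, Myh6, Hrc, Ldb3, Myl7, Smyd1, Cox6a2, Nppa, Coq8a and Myh7. All but Smyd1 and Coq8a are on the lists described here. Smyd1, a methyltransferase needed to build myofibrils, had 147 and 210.2 against 1.23 and 3.59 CPM and differed by 6.38 ± 0.39 (SE, adjusted p = 0.0002). Coq8a, which takes part in making coenzyme Q for the respiratory chain, had 158 and 265 against 1.77 and 3.61 CPM and differed by 6.34 ± 0.31 (SE, adjusted p = 0.00017). Each of the 12 was called in all 13 alternative settings.

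Genes of calcium cycling followed, with 17 of 19 called higher, 1 lower and a median of 5.21. Ryr2, the ryanodine receptor through which the sarcoplasmic reticulum releases calcium, had 452 and 742 CPM in the CM sums of WT1 and WT2 and 4.69 and 3.13 in the NCM sums. The NCM sums were far below the CM sums in both animals, and the difference was 7.24 ± 0.43 (SE, adjusted p = 0.0002). At least 1 Ryr2 UMI was present in 92.9 and 94.5% of CM wells and in 13.6 and 15.1% of NCM wells, and with 10000 UMIs drawn per well 72.0 and 78.2% against 4.05 and 3.88% would be expected. The SERCA pump Atp2a2 had 2181 and 4536 against 52.9 and 79.5 CPM (5.60 ± 0.29) and its regulator phospholamban, Pln, 1794 and 3331 against 29.1 and 99.1 CPM (5.51 ± 0.33). S100a1, a calcium-binding protein of striated muscle that acts on the pump and the release channel, had 1699 and 3099.5 against 127 and 255 CPM and differed by 3.67 ± 0.25 (SE, adjusted p = 0.00024). Hrc, which binds calcium inside the reticulum, differed by 6.68 ± 0.29 (SE, adjusted p = 0.00017).

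Sri went against the rest. It encodes sorcin, a calcium-binding protein found in many cell types, and it was called lower in CM, at 129 and 96.1 against 295 and 289.6 CPM (-1.39 ± 0.24, adjusted p = 0.01). Without WT1 9 genes of the list were called higher, without WT2 11, and Sri passed in neither. Fkbp1b was not called (-2.14 ± 0.86).

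Sarcolipin, Sln, an inhibitor of the pump that marks the atria, had the largest difference among genes at 100 CPM or more in both CM sums, 8.09 ± 0.57 (SE, adjusted p = 0.00024). Its values were 202 and 249 CPM in the CM sums of WT1 and WT2 and 1.4040 and 0.460 in the NCM sums. They rest unevenly on the wells: 55.2 and 40.5% of CM wells held a UMI of it, and a single WT2 well held 43.4% of the WT2 CM UMIs. The atrial light chain Myl7 (229 and 353 against 1.25 and 8.88 CPM) was likewise uneven, with 26.9% of its WT2 CM UMIs in a single well. The atrial hormone Nppa (165 and 248 against 1.02 and 5.91 CPM) was spread more widely, in 91.0 and 89.4% of CM wells. Sln, Myl7 and Nppa were also called without the deepest 5% of wells. That setting drops wells by their total UMIs, and whether it dropped the wells that held most Sln or Myl7 UMIs was not checked. Acta1, the skeletal actin re-expressed in stressed hearts, had 366 and 463 against 3.41 and 30.6 CPM, and Ankrd1, a stress-responsive Z-disc protein, had 1319.7 and 1784 against 30.3 and 71.0 CPM, with differences of 5.32 ± 0.70 (SE, adjusted p = 0.0028) and 5.05 ± 0.32 (SE, adjusted p = 0.0002). Single wells held 33.1% of the Acta1 UMIs and 17.9% of the Ankrd1 UMIs of the WT1 CM sum, and 6.48 and 4.99% of those of the WT2 CM sum. Of the 14 chamber and stress genes 11 were called higher, and Fhl1, Gdf15 and Rcan1 were not, at 1.09, 0.022 and 1.3997.

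Ion channels and junction proteins of the intercalated disc, the contact that couples neighbouring cardiomyocytes, were called higher in 15 of 19 cases, with a median of 5.79. The desmosomal linker Dsp had 374 and 597 against 6.54 and 14.1 CPM and N-cadherin, Cdh2, 94.6 and 144 against 10.1 and 9.41 CPM. The gap junction protein Gja1, which fibroblasts also make, showed a smaller gap, at 151 and 212 against 26.5 and 45.9 CPM. Their log2 differences were 5.62 ± 0.29 (SE, adjusted p = 0.00018), 3.58 ± 0.32 (SE, adjusted p = 0.00049) and 2.36 ± 0.26 (SE, adjusted p = 0.0012). The tight junction protein Tjp1 (-0.021), the potassium channels Kcnj2 (1.27) and Kcnj11 (5.83) and the cation channel Hcn2 (3.24) were not called. Without WT1 and without WT2, 9 and 12 were called.

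Genes of mitochondrial energy supply were called higher in CM nearly throughout, with smaller medians than the contractile lists. Each of the 54 nuclear genes for respiratory chain subunits was called higher in CM, with a median of 2.89 and a range of 1.63 to 6.34. Cox4i1, a subunit of cytochrome c oxidase, had 5889.6 and 8933 CPM in the CM sums of WT1 and WT2 and 972 and 1132 in the NCM sums, and differed by 2.79 ± 0.26 (SE, adjusted p = 0.00051). Atp5g1, which encodes the rotor subunit of ATP synthase, had 4222 and 6075 against 345 and 516 CPM and differed by 3.59 ± 0.25 (SE, adjusted p = 0.00024). For both genes the CM sums lay above the NCM sums in either animal. All 18 genes of the tricarboxylic acid cycle were called higher as well, from 1.86 to 3.98, with a median of 2.79. Mdh2, malate dehydrogenase, had the smallest of these differences (903 and 1200 against 278 and 295 CPM, 1.86 ± 0.24, adjusted p = 0.0023), and Idh2 and Sdhb, which serve isocitrate and succinate oxidation, differed by 3.33 ± 0.25 (SE, adjusted p = 0.00027) and 2.65 ± 0.24 (SE, adjusted p = 0.00045).

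Messages made inside the mitochondrion took up 38.1 and 35.7% of the CM sums and 7.45 and 11.2% of the NCM sums. Of 11 tested mitochondrially encoded protein genes 9 were called, with a median of 3.53. The NADH dehydrogenase subunit mt-Nd4 had 59165 and 68102 CPM against 3710.3 and 6538 (3.69 ± 0.31, adjusted p = 0.00037). The subunits mt-Cytb and mt-Nd1 differed by 2.75 ± 0.31 (SE, adjusted p = 0.0013) and 3.28 ± 0.31 (SE, adjusted p = 0.00059). Leaving mitochondrial and haemoglobin genes out of the totals kept 1568 of the 1951 calls that could be tested. The mitochondrial share, which is also read as a sign of RNA quality, moved with the fraction, and its part in the other results was not tested.

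Fatty acid oxidation followed, with 23 of 27 genes called higher and a median of 3.35. Fabp3, the heart fatty acid carrier, had 5281 and 8174 against 55.0 and 209.6 CPM and differed by 5.94 ± 0.41 (SE, adjusted p = 0.00024). Lpl, the lipase that frees fatty acids from lipoproteins at the capillary wall, had 2339.6 and 4358 against 195 and 352 CPM and differed by 3.61 ± 0.25 (SE, adjusted p = 0.00024). Etfb, which hands electrons from the first step of the pathway to the respiratory chain, differed by 3.31 ± 0.24 (SE, adjusted p = 0.00027). The fatty acid transporters Cd36 (349 and 510.1 against 156 and 324 CPM, 0.91 ± 0.24) and Slc27a1 (1.62) and the dehydrogenases Acadvl (4.23) and Acads (2.82) were not called. Cpt1b, the muscle form of the outer-membrane carnitine transferase, had 1 and 12 UMIs in the CM sums and 0 in the NCM sums and was not tested. The metabolic lists lost most calls when a WT animal was left out: of the 54 respiratory genes 3 passed without WT1 and 6 without WT2. For the tricarboxylic acid cycle the numbers were 2 and 4, for fatty acid oxidation 3 and 8 and for mitochondrially encoded genes 0 and 2. The median differences without WT1 and without WT2 were 2.92 and 2.68 for the respiratory genes, close to that with both.

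Glycolysis was mixed, with 18 of 27 genes called higher, 1 lower and a median of 1.44. Among the genes called higher were the muscle isozymes Pgam2 (2722 and 3594 against 58.5 and 172 CPM) and Eno3 (1424 and 1719.8 against 24.0 and 83.3 CPM), the insulin-responsive glucose carrier Slc2a4 (31.9 and 74.3 against 0.641 and 0.683 CPM) and the heart lactate dehydrogenase subunit Ldhb (2111 and 3079 against 47.0 and 142 CPM). Each was many times higher in both CM sums. Aldoa, the aldolase of muscle and many other tissues, had a smaller gap (1667 and 1884 against 403 and 459 CPM, 2.04 ± 0.23, adjusted p = 0.0013). Aldoc, the aldolase of brain, had 0 UMIs in both CM sums and 286 and 482 in the NCM sums, and was called lower. Its NCM UMIs lay in 17 wells of WT1 and 10 of WT2, with 49.3 and 68.7% of them in a single well. Without WT1 and without WT2, 6 and 6 genes were called higher.

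Pairs of a form prominent in striated muscle and a related gene were compared as well. The relatives are of several kinds: some, such as Actb and Rpl3, are used in most cells, while Cdh5 and Fabp4 are endothelial genes and Tnni1 is the troponin of slow skeletal muscle. Of 28 pairs 27 could be tested. The muscle form was called higher in CM in all 27, with a median log2 difference of 5.06. Among the relatives 3 were called higher, 4 lower and 20 not called, with a median of -0.43 against -0.15 over all genes. The muscle form had the larger difference in 26 pairs in WT1 and in 26 in WT2.

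Cytochrome c oxidase shows the split within a single enzyme, in 3 pairs. Cox6a2, the heart and skeletal muscle form, had 6542 and 11192 CPM in the CM sums of WT1 and WT2 and 53.4 and 208 in the NCM sums. Its relative Cox6a1 had 295 and 320 against 317 and 314 CPM, with the CM values inside or beside the range of the NCM values. The log2 differences were 6.34 ± 0.40 (SE, adjusted p = 0.00021) and -0.038 ± 0.22 (SE, adjusted p = 0.94). Cox8b had 2104 and 3846 against 29.7 and 95.5 CPM and Cox8a 434 and 479 against 337 and 357 CPM, with differences of 5.74 ± 0.33 and 0.39 ± 0.22. Cox7a1 had 2857 and 5329.8 against 40.7 and 141 CPM (5.69 ± 0.34), and here the relative Cox7a2 was called as well, at 1917 and 2857 against 329 and 395 CPM (2.70 ± 0.24, adjusted p = 0.00049). The 3 muscle forms were called in all 13 alternatives.

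Among enzymes of energy supply, the muscle creatine kinase Ckm had 231 and 315 against 6.30 and 19.9 CPM and the brain form Ckb 53.4 and 42.9 against 122 and 96.3 CPM. Ckm was called higher (4.58 ± 0.38, adjusted p = 0.00036) and Ckb lower (-1.18 ± 0.26, adjusted p = 0.025). The ribosomal protein Rpl3l, the striated muscle copy of Rpl3, had 104 and 203 against 4.53 and 4.17 CPM and Rpl3 had 157 and 115 against 283 and 267 CPM, called in opposite directions (5.06 ± 0.38, adjusted p = 0.00028 and -1.03 ± 0.24, adjusted p = 0.033). Actn2 was called higher while the non-muscle alpha-actinin Actn4 was called lower (19.8 and 14.1 against 41.0 and 53.5 CPM, -1.49 ± 0.36, adjusted p = 0.039), and Tpm1 was called higher while Tpm4 was called lower (100.2 and 56.0 against 184 and 150.1 CPM, -1.15 ± 0.26, adjusted p = 0.031). Beta-actin, Actb, had 2115 and 1076 against 3041 and 2917 CPM and was not called (adjusted p = 0.071).

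A few pairs departed from this. Hexokinase 2, the muscle form, had 101.2 and 151 against 56.1 and 52.8 CPM and hexokinase 1 had 40.8 and 36.6 against 14.6 and 6.66 CPM. Both were called higher and hexokinase 1 had the larger difference (1.97 ± 0.40, adjusted p = 0.019 against 1.18 ± 0.28, adjusted p = 0.036), in both animals. The small heat shock proteins Hspb6 and Hspb1 were both called higher as well (5.07 ± 0.62 and 1.64 ± 0.26). Hk2, Hk1 and Hspb1 lost their calls in both single-animal fits. Cardiomyocyte glycogen and sugar enzymes split like most pairs, with the phosphorylase Pygm at 5.48 ± 0.30 (SE, adjusted p = 0.00018) and Pygl at 0.32 ± 0.37, the phosphofructokinase Pfkm at 4.94 ± 0.32 (SE, adjusted p = 0.00022) and Pfkl at 0.33 ± 0.63, and Slc2a1, the carrier paired with Slc2a4, at -0.77 ± 0.50. The enolase Eno1 (-0.44 ± 0.28), the mutase Pgam1 (-0.27 ± 0.54) and Ldha (0.73 ± 0.22) were not called. The elongation factor Eef1a2 differed by 4.98 ± 0.63 and Eef1a1 by -0.64 ± 0.24, filamin Flnc by 3.95 ± 0.43 and Flna by -0.87 ± 0.34, and the integrin Itga7 by 4.65 ± 0.56 and Itga5 by -1.64 ± 0.58. The adenine nucleotide carriers split as well, with Slc25a4 at 3.70 ± 0.26 (SE, adjusted p = 0.00024) and Slc25a5 at 0.50 ± 0.22 (SE, adjusted p = 0.2). Of the relatives named, Cox8a, Ldha, Pfkl, Pygl and Slc25a5 turned from above to below 0 with plain library totals.

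**Figure D4:**
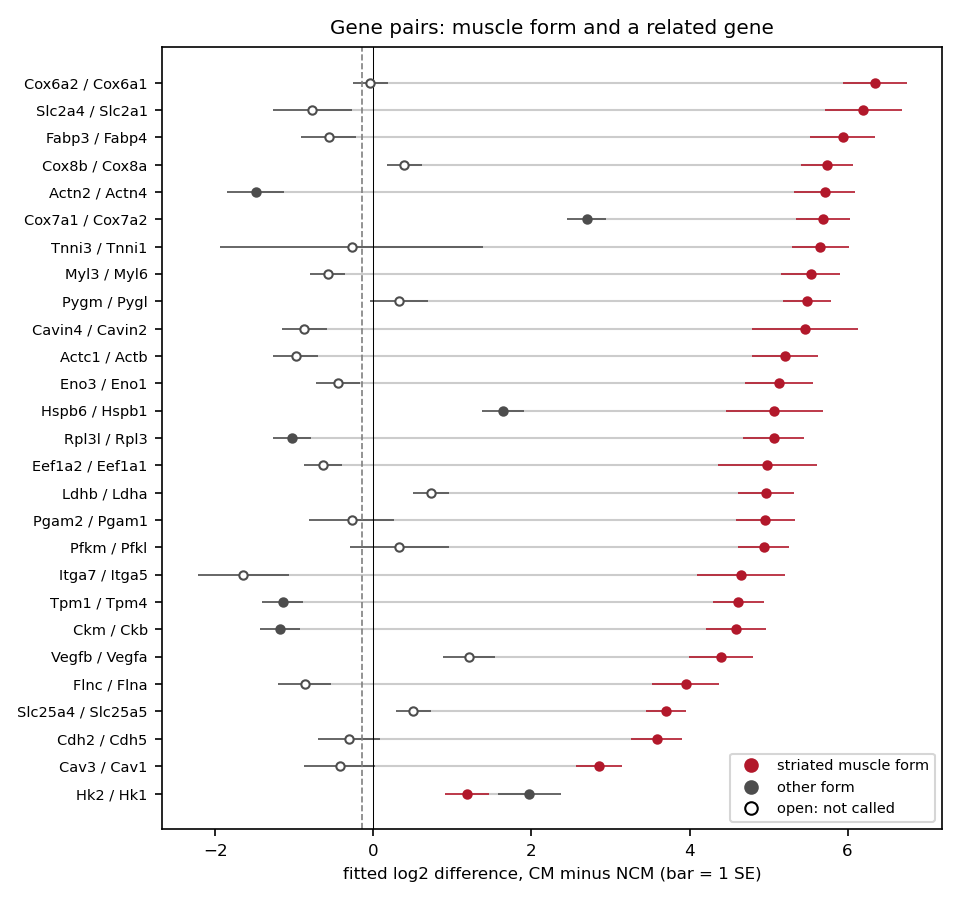
Fitted log2 difference, CM minus NCM (horizontal axis, bars 1 SE), for 27 pairs of a striated muscle form (red) and a related gene (grey); open symbols are not called and the dashed line is the median of all genes. The red symbols lie to the right of 0 in every pair, and the grey symbols lie between -1.64 (Itga5) and 2.70 (Cox7a2), left of the red one in every pair but Hk2 and Hk1.

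The start sites of these pairs differ in their letters. The 250 bases before the start site were read from RefSeq windows (build GRCm38.p6, which is the mm10 assembly). They are shown for 3 pairs, each 5′ to 3′ on the gene's own strand, with CG dinucleotides in capitals. In each pair the muscle form had the larger log2 difference, but Cox7a2 was called higher in CM as well.
Cox7a1 (chr7:30183921-30184170, + strand): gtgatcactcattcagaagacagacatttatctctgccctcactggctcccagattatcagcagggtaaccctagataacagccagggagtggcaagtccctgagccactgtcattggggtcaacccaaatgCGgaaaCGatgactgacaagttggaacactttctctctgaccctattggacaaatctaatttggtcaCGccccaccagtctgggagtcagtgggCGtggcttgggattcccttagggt
Cox7a2 (chr9:79759854-79760103, - strand): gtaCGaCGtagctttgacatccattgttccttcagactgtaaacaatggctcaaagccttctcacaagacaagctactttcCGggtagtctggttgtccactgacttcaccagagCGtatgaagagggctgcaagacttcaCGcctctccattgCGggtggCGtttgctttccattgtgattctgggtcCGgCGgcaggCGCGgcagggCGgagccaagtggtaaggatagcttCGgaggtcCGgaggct
Cox8b (chr7:140900447-140900696, - strand): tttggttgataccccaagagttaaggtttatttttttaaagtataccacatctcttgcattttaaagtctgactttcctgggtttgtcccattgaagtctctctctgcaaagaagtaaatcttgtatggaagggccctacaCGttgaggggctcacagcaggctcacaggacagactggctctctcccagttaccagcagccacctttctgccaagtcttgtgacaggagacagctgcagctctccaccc
Cox8a (chr19:7217617-7217866, - strand): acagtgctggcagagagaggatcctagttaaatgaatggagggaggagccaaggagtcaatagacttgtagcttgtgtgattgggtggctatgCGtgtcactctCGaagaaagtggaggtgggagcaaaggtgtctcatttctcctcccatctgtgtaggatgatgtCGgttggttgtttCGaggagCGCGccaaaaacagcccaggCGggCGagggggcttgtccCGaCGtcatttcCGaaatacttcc
Ckm (chr7:19410844-19411093, + strand): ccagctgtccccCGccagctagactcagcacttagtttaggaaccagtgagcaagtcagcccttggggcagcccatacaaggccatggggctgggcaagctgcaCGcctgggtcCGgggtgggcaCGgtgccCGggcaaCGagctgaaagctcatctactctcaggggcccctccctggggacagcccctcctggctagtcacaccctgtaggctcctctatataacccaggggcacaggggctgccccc
Ckb (chr12:111672339-111672588, - strand): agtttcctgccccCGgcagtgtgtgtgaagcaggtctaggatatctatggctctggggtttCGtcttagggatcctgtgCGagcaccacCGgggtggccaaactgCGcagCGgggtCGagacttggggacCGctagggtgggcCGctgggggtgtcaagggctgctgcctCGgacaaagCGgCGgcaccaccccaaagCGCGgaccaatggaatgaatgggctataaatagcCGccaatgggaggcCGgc
The muscle forms held 4, 1 and 6 CG dinucleotides (Cox7a1, Cox8b and Ckm) and their relatives 14, 11 and 16 (Cox7a2, Cox8a and Ckb). CG-rich start sites are typical of widely expressed genes.

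Over all pairs, 19 of 28 muscle forms and 17 of 28 relatives had exactly 1 window. Their median numbers of CG dinucleotides were 4 and 14, against 15 over 8948 tested genes with 1 window. The thick filament genes had a median of 3 (11 of 15 matched), but the respiratory chain genes had 14 (37 of 54) and all genes called higher in CM 14 (770 of 1339). Genes called lower had 7 (369 of 635). The letters CANNTG, which read the same on either strand and form an E-box, were present in 15 of 19 muscle windows (78.9%), in 8 of 17 windows of relatives (47.1%) and in 57.4% of the windows of tested genes and 66.2% of all 32841 windows. The letters TATAAA, searched on both strands, were in 1 muscle window, 1 window of a relative, 7.02% of the windows of tested genes and 12.4% of all; in Ckb they begin 28 bases before the start site.

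Regulators of the heart's gene programme were divided in part. Of 19 cardiac transcription factors and coactivators 7 were called higher, with a median of 1.86. The list's median was 2.67 without WT1, 1.42 without WT2 and 0.79 with plain library totals. Ppargc1a, the coactivator of mitochondrial biogenesis, had 43.8 and 77.8 CPM in the CM sums of WT1 and WT2 and 0.349 and 0.598 in the NCM sums. The NCM sums were below 1 CPM, and the difference was 6.99 ± 0.41 (SE, adjusted p = 0.0002). The homeobox factor Nkx2-5 (6.88 and 11.5 against 0.0998 and 0.256 CPM, 5.77 ± 0.85, adjusted p = 0.0045), the ventricular Irx4 (7.79 ± 1.05), the estrogen-related receptors Esrrb (7.29 ± 0.76) and Esrrg (6.99 ± 0.98), Ppargc1b (3.93 ± 0.55) and Ppara (6.32 ± 0.91) were the others. Mef2a and Mef2c, which endothelial cells and leukocytes also express, had 106 and 124 against 57.5 and 83.5 CPM and 51.6 and 82.1 against 32.7 and 53.1 CPM and were not called (adjusted p = 0.12 and 0.18). Their small positive differences turned negative with plain library totals. Gata4 (2.00 ± 0.83) and Tbx5 (1.95 ± 0.99) were not called either.

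Genes of the Hippo pathway, to which the kinases missing in the KO animals belong, lay near the median gene, with a median of -0.021 over 21 genes against -0.15 over all. Stk4, which encodes MST1, had 27.0 and 14.2 against 32.1 and 29.2 CPM, and Stk3, which encodes MST2, had 10.6 and 13.8 against 14.2 and 23.8 CPM. For both kinases the CM values lay below the NCM values in either animal, by less than the test could call, with differences of -0.64 ± 0.37 (SE, adjusted p = 0.32) and -0.60 ± 0.40 (SE, adjusted p = 0.39). Only Tead1, the factor through which YAP acts on DNA, was called, higher in CM at 65.3 and 81.5 against 13.1 and 12.7 CPM (2.496 ± 0.31, adjusted p = 0.0021), and it was not called without WT1 or without WT2. Yap1 differed by 1.29 ± 0.50 and Wwtr1, which encodes its relative TAZ, by 0.24 ± 0.35.

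Chaperones and antioxidants were mixed. Among 19 heat shock genes 9 were called higher. They were the small heat shock proteins Hspb1, Hspb6, Hspb7, Hspb8 and Cryab, the mitochondrial chaperones Hspd1, Hspe1 and Hspa9, and the co-chaperone Bag3, of which Hspe1 stood below 0 with plain library totals (-0.18). Cryab, which guards the intermediate filament desmin, had 1915 and 2459 against 68.8 and 185 CPM and differed by 4.27 ± 0.34 (SE, adjusted p = 0.00032). The stress-induced Hspa1a (-0.37 ± 0.47) and the constitutive Hsp90ab1 (0.41 ± 0.23) and Hspa5 (-0.37 ± 0.22) were not called. Of 25 antioxidant genes 6 were called higher (Sod1, Sod2, Prdx2, Prdx3, Txn2 and Nqo1, with Txn2 at -0.085 with plain library totals) and 2 lower. Sod2 and Prdx3 are mitochondrial and differed by 1.68 ± 0.24 (SE, adjusted p = 0.0038) and 2.11 ± 0.28 (SE, adjusted p = 0.0029). Gpx1 (862 and 503 against 1118 and 1369 CPM), Prdx1 (1371 and 1098 against 1364 and 1298 CPM) and the metallothionein Mt1 (1106 and 2001 against 1568 and 2276 CPM) were not called. The lower genes were the secreted enzymes Sod3 (8.94 and 6.24 against 52.9 and 30.0 CPM, -2.42 ± 0.36, adjusted p = 0.005) and Gpx3 (233 and 238 against 529.6 and 439 CPM, -1.03 ± 0.23, adjusted p = 0.029). The medians of both lists, 0.46 and 0.13, became -0.61 and -0.94 with plain library totals. Without either animal in turn 0 of the antioxidant genes and 2 (without WT1) or 4 (without WT2) of the heat shock genes passed.

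Several genes listed as markers of other cells were called higher in CM. Myocd, the coactivator of smooth muscle genes that cardiomyocytes also express, had 16.4 and 34.9 CPM in the CM sums of WT1 and WT2 and 0.0285 and 0.105 in the NCM sums. It was all but absent from both NCM sums, and differed by 8.65 ± 0.63 (SE, adjusted p = 0.00026), while none of the other 7 smooth muscle markers was called and Acta2 and Tagln had -0.054 ± 0.24 and -1.19 ± 0.33. Abcc9, a subunit of the potassium channel that senses ATP in pericytes and in heart muscle, had 37.5 and 51.7 against 12.1 and 24.1 CPM and was called higher (1.36 ± 0.33, adjusted p = 0.04). Prox1, the master regulator of lymphatic endothelium, had 13.4 and 29.4 against 2.93 and 4.65 CPM and was called higher too (2.42 ± 0.45, adjusted p = 0.014). The other lymphatic genes did not follow: Ccl21a, a chemokine made by lymphatic vessels, had 4.08 and 8.26 against 298 and 584 CPM and was called lower (-6.16 ± 0.29, adjusted p = 0.00017), and Mmrn1 was also lower (-4.91 ± 0.95, adjusted p = 0.016). Single wells held 74.9 and 68.6% of the Prox1 UMIs of the WT1 and WT2 NCM sums, but at most 10.3% of those of the CM sums. For Ccl21a single wells held 42.6 and 29.6% of the UMIs of the WT1 and WT2 NCM sums. Lyve1, a receptor of lymphatic vessels and of some macrophages, had 9.46 and 14.3 against 17.5 and 95.6 CPM and missed the threshold (adjusted p = 0.056), and Pdpn differed by -0.76 ± 0.43. Abcc9 and Prox1 were not called in either single-animal fit.

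Ptgds, which encodes a synthase of prostaglandin D2, stood apart from the other lipid mediator genes. It had 609 and 1607 CPM in the CM sums of WT1 and WT2 and 3.43 and 44.0 in the NCM sums. Both CM values were above both NCM values, and the WT2 values were above those of WT1. The log2 difference was 6.32 ± 0.61 (SE, adjusted p = 0.00063), within the range of the cardiomyocyte markers. The gene was spread over the CM wells: 93.3 and 99.6% of CM wells held at least 1 UMI, with medians of 28.5 and 81.5 UMIs, against 14.3 and 18.3% of NCM wells. With 10000 UMIs drawn per well, 72.5 and 92.0% against 2.95 and 7.16% would be expected. Ptgds was called without WT2 (adjusted p = 0.002) and not without WT1 (adjusted p = 0.055), nor without the replicate block (adjusted p = 0.051).

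Of the remaining 18 tested leukotriene and prostanoid genes 5 were called lower in CM, and the list's median was -1.09. The inducible cyclooxygenase Ptgs2 differed by -1.81 ± 0.45 (SE, adjusted p = 0.043), Dpep1, which trims leukotriene D4, had 11.05 and 10.98 against 106 and 141 CPM and differed by -3.47 ± 0.30 (SE, adjusted p = 0.00041), and Alox5ap, which presents arachidonic acid to the 5-lipoxygenase, had 163 and 80.8 against 324 and 314 CPM and differed by -1.47 ± 0.30 (SE, adjusted p = 0.019). The leukotriene B4 receptor Ltb4r1, named in the title of the series, had 3 and 2 UMIs in the CM sums and 121 and 194 in the NCM sums. That is 0.129 and 0.0663 against 0.862 and 1.27 CPM, and the difference was not called (-3.46 ± 1.55, adjusted p = 0.21). UMIs were too few in CM to set the size of the difference, and with 10000 UMIs drawn per well no more than 1.48% of wells of any sum would hold a UMI.

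Of 21 genes for angiogenic ligands and receptors 2 were called higher in CM, where 8.14% of all tested genes were, and 1 lower. Vegfb, a ligand of the receptor VEGFR1, had 72.2 and 156 against 5.28 and 4.81 CPM (4.40 ± 0.41, adjusted p = 0.00054), and Angpt1, which steadies vessels through the receptor Tek, had 23.9 and 32.1 against 7.58 and 6.26 CPM (2.01 ± 0.41, adjusted p = 0.021). Vegfa, which drives vessel growth, had 39.1 and 64.5 against 20.9 and 22.6 CPM and missed the threshold (adjusted p = 0.055). Pgf, the placental growth factor and another ligand of VEGFR1, was the gene called lower (2.62 and 9.02 against 30.6 and 82.8 CPM, -3.36 ± 0.35, adjusted p = 0.00096). The receptors were not called, with Kdr at -0.70 ± 0.29, Flt1 at -0.26 ± 0.35 and Tek at -0.55 ± 0.37. Of the caveolar proteins, the muscle forms Cav3 (111 and 139.5 against 18.5 and 16.0 CPM) and Cavin4 (75.6 and 112 against 4.05 and 1.05 CPM) were called higher and Cavin3 was called lower (-1.96 ± 0.30, adjusted p = 0.0055). Vegfb passed in both single-animal fits, and Angpt1 and Cav3 in neither.

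The NCM fraction was richer in fibroblast genes. Of 12 fibroblast markers 10 were called lower in CM, where 3.86% of all tested genes were, with a median of -2.22. Dcn, the small proteoglycan decorin, had 399 and 442 CPM in the CM sums of WT1 and WT2 and 2810.3 and 3217 in the NCM sums. The NCM sums were about alike in the animals and the fractions did not overlap, with a difference of -2.84 ± 0.24 (SE, adjusted p = 0.00038). Gsn, the actin-severing protein gelsolin, had 84.7 and 107 against 1100.3 and 1744 CPM (-3.86 ± 0.26, adjusted p = 0.00024), and Mfap5, a protein of elastic microfibrils, 450.2 and 664 against 2686 and 1741 CPM (-1.98 ± 0.33, adjusted p = 0.0081). The fibrillar collagens were closer. Col3a1 had 883 and 755 against 2018 and 854 CPM, so that its WT2 NCM value lay within the range of the CM sums, and with Col1a2 (-0.50 ± 0.24) it was not called, whereas Col1a1 was (-1.03 ± 0.24, adjusted p = 0.035). Without WT1 2 of the markers were called and without WT2 3.

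Over the wider set of 35 matrix genes 13 were called lower, with a median of -0.85. Called were the fibulins Fbln1, Fbln2 and Fbln5, the collagen VI chains Col6a1 and Col6a2, Bgn and Sparc, among others. Sparc, which binds collagen as it is secreted, had 809 and 679.9 against 2105 and 1433 CPM (-1.23 ± 0.23, adjusted p = 0.014). Genes of scar and tension such as Postn (-0.40 ± 0.32), Tnc (0.21 ± 0.34), Fn1 (-0.48 ± 0.23) and Ccn2 (0.07 ± 0.26) were not called. In both single-animal fits 0 of the matrix genes were called.

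For vascular endothelial genes no difference was called. By edgeR 0 of the 14 markers passed. Before adjustment 4 were lower and 1 higher at p under 0.05, DESeq2 called 1 higher and 3 lower, and the median was -0.63. It depended on the animal, with -1.27 without WT1 and -0.26 without WT2, and members reached down to -2.02. Cdh5, the cadherin of endothelial junctions, had 47.5 and 33.1 CPM in the CM sums of WT1 and WT2 and 37.0 and 65.2 in the NCM sums. The fractions overlapped, since the WT1 CM value was above the WT1 NCM value and the WT2 values stood the other way round. Fabp4, the fatty acid carrier of capillaries, had 524 and 508 against 483 and 1205 CPM and Gpihbp1, the anchor for lipoprotein lipase, 181 and 179 against 235 and 593 CPM, and in both the WT2 NCM sum was the high one. Nrp1, a co-receptor of VEGF, had 176 and 134 against 153 and 174 CPM. Vwf, stored in endothelial granules and listed with the endocardial markers, was called lower (26.8 and 30.3 against 55.9 and 99.5 CPM, -1.39 ± 0.31, adjusted p = 0.027). With plain library totals 11 of the 14 vascular markers were called lower in CM, and with wells thinned to 10000 UMIs 5 of 13 were. Pericyte markers such as Rgs5 (60.9 and 85.3 against 82.2 and 170.3 CPM, -0.72 ± 0.27) were not called, apart from Abcc9 and Vtn (-1.99 ± 0.50, adjusted p = 0.044). Higd1b (-0.17 ± 0.37) and the smooth muscle gene Smtn (1.13 ± 0.39) were not called. The endocardial Cytl1 was called lower (10.4 and 28.8 against 40.1 and 56.3 CPM, -1.45 ± 0.37, adjusted p = 0.045) and Cgnl1 had 28.2 and 19.7 against 28.9 and 19.5 CPM. Single wells held 61.0 and 85.3% of the Cytl1 UMIs of the WT1 and WT2 CM sums, and 35.5 and 23.5% of those of the NCM sums. The median of the endocardial list was -0.21, with -1.09 without WT1 and 0.27 without WT2.

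Of 12 macrophage markers 2 were called, both lower in CM. Lyz2, a lysozyme of myeloid cells, had 4046 and 1438 CPM in the CM sums of WT1 and WT2 and 3143 and 3223 in the NCM sums. In WT1 the CM sum was the higher one and in WT2 the NCM sum, and the complement gene C1qb (1080.2 and 432 against 837 and 1455 CPM) and Cd68 (451 and 152 against 452 and 403 CPM) varied alike, with C1qb again on opposite sides in the animals. Fcgr1 (-1.26 ± 0.32, adjusted p = 0.044) and Cd14 (-2.45 ± 0.30, adjusted p = 0.0019) were the genes called. The count depended on the setting. With no replicate block, and likewise in a fit of all 4 animals, 1 marker was called lower. DESeq2 called 4 lower, and edgeR 9 with wells thinned to 10000 UMIs and 11 with plain library totals. The list's median was -0.82, with -1.65 without WT1 and -0.081 without WT2. Pf4, a chemokine of platelets that is also found in heart macrophages, had 1414 and 792 against 1373 and 1693 CPM and was not called, and of the 5 tested platelet markers 0 were called by edgeR (before adjustment 1 lower and 0 higher at p under 0.05; by DESeq2 1 and 0). The wells that mixed macrophage and cardiomyocyte markers, described above, held most of this RNA in the CM sums.

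Genes for the display of antigen on class II molecules, made by dendritic cells, B cells and some macrophages, were lower in CM in 7 of 10 cases, with a median of -3.64. H2-Ab1 had 162 and 106 CPM in the CM sums of WT1 and WT2 and 1872 and 2321 in the NCM sums. Both CM sums were well below both NCM sums, and the difference was -3.99 ± 0.32 (SE, adjusted p = 0.00032). H2-Aa (-3.89 ± 0.26, adjusted p = 0.00024), H2-Eb1 (-3.79 ± 0.27, adjusted p = 0.00024) and Cd74 (-4.07 ± 0.37, adjusted p = 0.0005) went with it, while H2-Oa, H2-Ob and Ciita were not called. Fewer class I genes were called, with 6 of 14 called lower and a median of -1.38. H2-D1 had 256 and 138 against 501 and 739 CPM (-1.69 ± 0.37, adjusted p = 0.025), H2-K1 had 150.5 and 117 against 229 and 318 CPM and missed the threshold (adjusted p = 0.057), and B2m, the shared light chain, had 691 and 618 against 1066 and 1340.3 CPM and missed the threshold (adjusted p = 0.061). Without WT1 0 genes of either list were called, and without WT2 3 of class II.

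Some lymphocyte and granulocyte genes were much lower in CM, and others of their lists were not called. The granule protein S100a9 of neutrophils had 13.5 and 13.9 CPM in the CM sums of WT1 and WT2 and 379.5 and 163 in the NCM sums and the decoy receptor Il1r2 16.6 and 4.25 against 295 and 179 CPM. For both, WT1 was above WT2 in NCM and the fractions did not overlap, and the differences were -4.18 ± 0.38 (SE, adjusted p = 0.00049) and -4.76 ± 0.39 (SE, adjusted p = 0.00035). S100a8, the partner of S100a9, differed by -3.70 ± 0.42 (SE, adjusted p = 0.0013). Of 8 tested neutrophil markers 5 were called lower. Among T and NK cell genes Nkg7, a granule protein of killer cells, had 0 and 0.133 against 12.2 and 28.9 CPM (-8.32 ± 0.83, adjusted p = 0.00075), and 4 of 8 were called. The interleukin 7 receptor gene Il7r differed by -3.64 ± 0.57 (SE, adjusted p = 0.0063), and Cd3d, of the T cell receptor complex, had 0.946 and 0 against 8.77 and 23.2 CPM and missed the threshold (adjusted p = 0.059). The B cell light chain Igkc had 0 and 0.332 against 7.89 and 34.0 CPM and 4 of 8 B cell markers were called, among them the heavy chain Ighm (-2.85 ± 0.52, adjusted p = 0.012), while Ebf1, which fibroblasts also express, had 17.5 and 17.3 against 23.1 and 26.4 CPM. In the dendritic list 3 of 8 were called, among them Ccr7 (-6.66 ± 1.02, adjusted p = 0.0054) and Cd209a (-4.71 ± 0.69, adjusted p = 0.0045). Single wells held 57.0 and 43.3% of the Ccr7 UMIs and 53.2 and 29.2% of the Cd209a UMIs of the WT1 and WT2 NCM sums. For Cd3d these shares were 83.2 and 63.7%. Outside mitochondrial and haemoglobin genes, 2 of 692 and 4 of 703 NCM wells had at least 1% T and NK cell markers. They held 37.5 and 71.9% of the list's UMIs in the NCM sums. For B cell markers 1 and 4 NCM wells reached 1%, and held 5.88 and 40.0%. With a single animal these lists kept between 0 and 3 calls each.

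Inflammatory cytokines and chemokines were called lower in CM in 16 of 31 cases, with a median of -1.45. Ccl2, which draws monocytes, had 531 and 355 CPM in the CM sums of WT1 and WT2 and 1614 and 1741 in the NCM sums and differed by -1.95 ± 0.27 (SE, adjusted p = 0.0033). The NCM values were about alike and the fractions did not overlap. Ccl4 had 1155 and 776 against 2621 and 1957 CPM (-1.26 ± 0.23, adjusted p = 0.012), Cxcl1 585 and 279.7 against 1474 and 1154 CPM (-1.69 ± 0.27, adjusted p = 0.0063) and Il1b differed by -3.23 ± 0.26 (SE, adjusted p = 0.00032). Ccl6 (1065 and 757 against 925 and 1625 CPM) was not called. Spp1, the secreted osteopontin, had 2199.8 and 1228 against 1153 and 748 CPM, above the median gene in both animals, and missed the threshold (adjusted p = 0.059). Its difference of 0.82 became -0.25 with plain library totals. The interferon-induced membrane proteins Ifitm1, Ifitm2 and Ifitm3 were called lower (-3.29 ± 0.28, adjusted p = 0.0004, -2.13 ± 0.25, adjusted p = 0.0017 and -1.23 ± 0.24, adjusted p = 0.016), and the other 17 interferon-stimulated genes were not called. Of 23 immediate early genes, which dissociation of tissue can induce, 6 were called lower, among them Dusp1 (203 and 120.1 against 326 and 437 CPM, -1.27 ± 0.32, adjusted p = 0.045), and Fos (268 and 175 against 332 and 365 CPM) and Egr1 (153 and 180.4 against 232 and 369 CPM) were not. DESeq2 called 15 of the 23 lower, edgeR 19 with thinned wells and 22 with plain library totals. Before adjustment 19 had p under 0.05 in this direction. Their part in the other results was not tested. Only 1 cytokine gene and 0 immediate early genes were called in each single-animal fit.

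Haemoglobin genes were far higher in NCM. Hba-a1 had 7.35 and 16.9 CPM in the CM sums of WT1 and WT2 and 4289.9 and 12929.6 in the NCM sums, with WT2 above WT1, and differed by -9.39 ± 0.35 (SE, adjusted p = 0.00017). Hba-a1 and Hba-a2 are near-identical copies, so how their reads were divided is uncertain. A UMI of Hba-a1 was found in 99.3 and 99.7% of NCM wells and in 11.9 and 16.1% of CM wells. The deepest 5% of NCM wells for this gene held 97.1 and 97.8% of its UMIs. The beta globin genes Hbb-bs (-8.02 ± 0.63, adjusted p = 0.00031) and Hbb-bt (-8.80 ± 0.54, adjusted p = 0.0002), also close copies, were lower as well. All 6 tested erythroid markers were called lower in CM, also Alas2, the first enzyme of haem synthesis in red cells, with 0 UMIs in both CM sums and 648 and 1568 in the NCM sums.

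Genes of growth and upkeep lay near the median gene. Of 42 cytosolic ribosomal protein genes Rpl3 and Rpl13 (-0.92 ± 0.22, adjusted p = 0.039) were called lower, with a median of -0.22, close to that of all genes. Rps14 had 2675 and 3064 against 2856 and 2956 CPM, and Rps19 and Rpl32 differed by -0.57 ± 0.23 and -0.20 ± 0.22. Among 20 cell cycle genes 0 were called by edgeR. DESeq2 called 0 lower and 1 higher, before adjustment edgeR had 4 lower and 1 higher at p under 0.05, and the median was -0.49. Mki67, a marker of dividing cells, had 79.1 and 51.2 against 117 and 50.8 CPM, with values that overlapped between the fractions, and Birc5 and Tyms, which act in division and in making thymidylate, differed by -0.58 ± 0.25 and -0.91 ± 0.31. With plain library totals, where the median gene was at -1.22, 37 of the ribosomal and 11 of the cell cycle genes were called lower, with medians of -1.29 and -1.56.

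**Figure D5:**
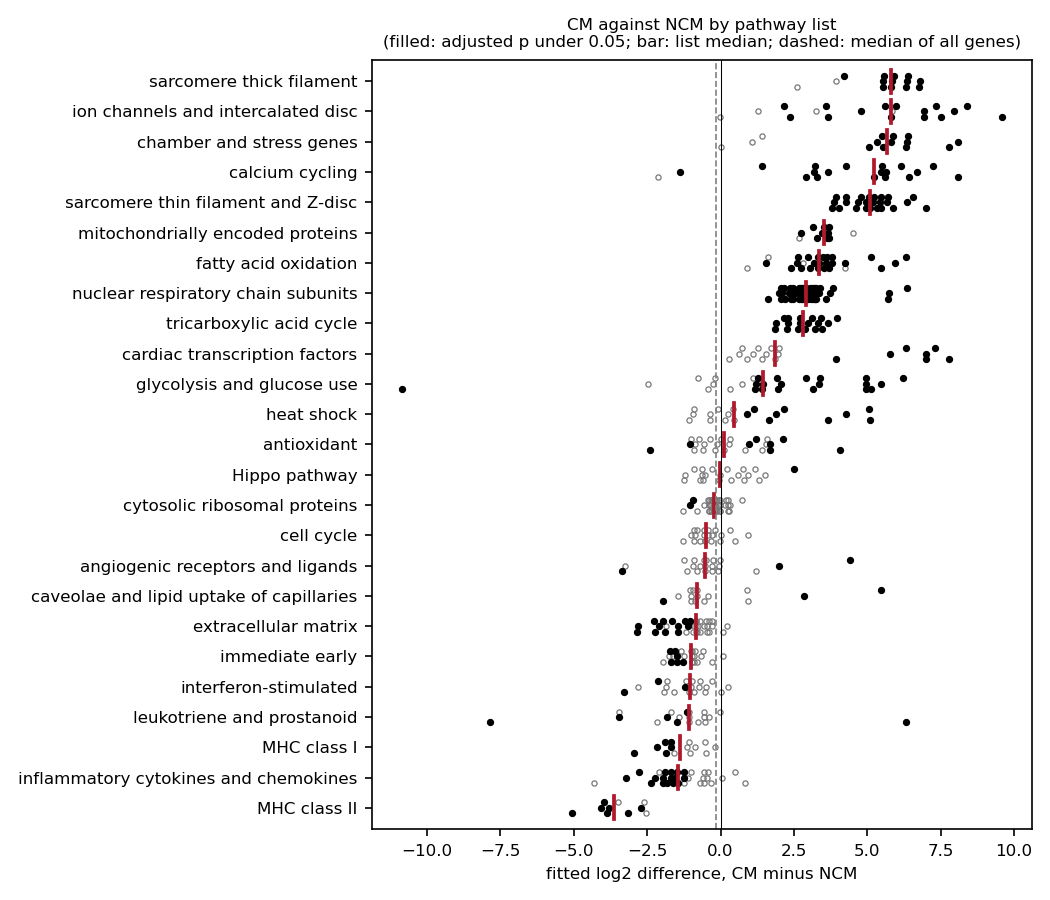
Fitted log2 difference, CM minus NCM (horizontal axis), of the tested genes of 25 pathway lists (rows, ordered by their median); filled points are called, red bars are list medians and the dashed line is the median of all genes. Contractile, channel and mitochondrial lists lie to the right, ribosomal and Hippo genes at the centre, and class II, cytokine and matrix lists to the left, with Ptgds as the lone filled point far to the right in the leukotriene and prostanoid row.

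In the KO sums of KO1 and KO2, Stk4 had 9.99 and 8.78 CPM in CM and 20.5 and 18.6 in NCM, and Stk3 had 17.4 and 11.2 against 12.9 and 13.1, and on the same scaling the WT sums had 22.98 and 12.2 against 27.7 and 25.4 for Stk4 and 9.01 and 11.8 against 12.2 and 20.7 for Stk3. RNA of both target genes was thus still counted in animals labelled KO, and since the labels do not say which part of a gene is missing, these counts do not check the genotype. Mitochondrial messages took 47.2 and 36.4% of the KO CM sums and 58.1 and 36.5% of the KO NCM sums, where those of WT were given above, and the part of this in the comparison was not tested. Whether the fractions differed in the same way in these hearts as in WT was tested by the interaction of fraction and genotype over all 4 animals. Of 17891 tested genes 0 were called by edgeR, with 892 at an unadjusted p under 0.05, and DESeq2 called 139. Without KO1 4 genes were called by edgeR, and without KO2 49. The log2 ratio of CM to NCM for Myh6 was 6.93 in WT1, 6.47 in WT2, 4.10 in KO1 and 4.78 in KO2. For Dcn the values were -2.83 and -2.89 against -2.12 and -3.16.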

How the data were processed

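RNA of single wells from mouse hearts was counted on 4 chips. The 2 WT chips were used here, and the KO chips entered the interaction and the single-animal fits. The deposited files hold UMI counts per gene and well. The submitters' processing notes list the mm10 build, Subread 1.4.6-p1 with featureCounts, and STAR 2.5.2b. How UMIs were collapsed, whether strand was used and which annotation release was taken is not given in the sources used here, so antisense genes, pseudogenes and near-identical copies can share reads. Control wells were left out, and 70 spike-in and reporter columns (4.98e-05% of UMIs) were dropped. The total count was 31387274 to 109890038 UMIs per sum.

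Counts of kept wells were summed by animal and fraction and fitted in edgeR 4.0.16 (R 4.3.3) with filterByExpr, TMM factors, a term for the animal and the quasi-likelihood test. P-values were adjusted by Benjamini-Hochberg over all tested genes, with a threshold of 0.05. The SE is the size of the log2 difference divided by the square root of F. The fit was tested on simulated data with a dispersion of 0.05, while the fit of these data had a common dispersion of 0.293. The simulation thus does not show how the test performs at the spread of these data. With 2 animals each gene had 1 residual degree of freedom, and the test also drew on the spread of other genes (median prior degrees of freedom 6.30). Both fractions of an animal carry its name in the well annotation, which pairs them. The animals' difference in one fraction correlated with that in the other at 0.05 over all 16450 genes and at 0.13 over the 6920 with a mean of at least 10 CPM. No doublet caller was run, and an alternative left out the deepest 5% of wells.

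Named genes were the 12 called genes of largest difference in each direction with at least 100 CPM in both sums of the higher fraction, the 3 members of each list with the highest mean CPM, called members that went against their list's median, 28 isoform pairs, and Stk3, Stk4 and Ltb4r1. A list member and a pair that belonged to these are not reported here and were left out of the counts. In addition, 1 gene with an Ensembl ID alone met the rule for NCM and is not described. Members of lists outside this rule were chosen after their values were seen. The lists overlap, and the members and lists were chosen with earlier results of these data known. Alternatives were plain library totals, RLE size factors, DESeq2 1.42.0, no count filter, no block, a fit of all 4 animals, thinned wells, other filters on wells, leaving out mitochondrial and haemoglobin genes, and leaving out each animal.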

Additional observations from a re-analysis of the deposited data

Results flagged for a closer look

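For 7 of the genes named here the CM to NCM log2 ratio stood on opposite sides of 0 in the WT and the KO animals, in both animals of each genotype. The difference between the genotypes was tested by the interaction in edgeR, and adjusted over all genes it was not called for any of them. Gpx3, the secreted glutathione peroxidase called lower in CM, had -1.20 in WT1, -0.90 in WT2, 1.31 in KO1 and 0.84 in KO2, with an interaction (KO minus WT) of 2.14 (adjusted p = 0.72). Abcc9, the channel subunit called higher in CM, had 1.52 and 1.04 against -0.78 and -0.56, with an interaction of -2.06 (adjusted p = 0.95). The other 5 genes were not called in WT. Their interactions were 2.06 for Itga5, -1.45 for Pygl, 1.22 for Eno1, 0.68 for Prdx1 and 0.39 for Rpl32, with adjusted p from 0.95 to 0.98. How many of all tested genes had such opposite signs is not given here, so the number 7 cannot be read as an excess. Some of the WT ratios lay near 0, such as -0.010 and -0.27 for Prdx1 and -0.25 and -0.19 for Rpl32 in WT1 and WT2. The genotypes were run on different chips, so the chip and the genotype cannot be told apart.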

How the results depend on the processing

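With the animal as a block 1974 genes were called, and with no replicate block 1588. Plain library totals gave 5693 calls (886 higher and 4807 lower, against 1339 and 635), DESeq2 3507, no count filter 3136 and a fit of all 4 animals 1080. Leaving out WT1 or WT2 gave 232 to 347. The settings not named here (RLE factors, other filters on wells, thinning, leaving out mitochondrial and haemoglobin genes) gave 1570 to 2913, the highest with thinned wells. The interaction gave 139 genes with DESeq2 and 0 to 49 with an animal left out (4 without KO1 and 49 without KO2), and 0 with plain library totals, with no block and without mitochondrial and haemoglobin genes. Of the genes named that were called with either scaling, Ccn2, Cox8a, Hsp90ab1, Hspe1 and Txn2 turned from above to below 0 with plain library totals, at -0.9997, -0.68, -0.66, -0.18 and -0.085. Cd36, Gdf15, Ldha, Mef2a, Mef2c, Pfkl, Pygl, Slc25a5, Spp1, Tnc and Wwtr1, called with neither, turned as well. Of 43 list medians 3 turned with plain library totals (heat shock, antioxidant and epicardial, the last from 0.34 to -0.72), 2 without WT1 and 3 without WT2. Of all UMIs, in place of those outside mitochondrial and haemoglobin genes, cardiomyocyte markers took 4.11 and 5.80% of the CM sums. All WT2 CM wells (100%) of at least 20000 UMIs reached 1% of these markers. Without mitochondrial and haemoglobin UMIs, CM wells held a median of 1755 and 1722 genes at 10000 UMIs. The number of animals, 2, limits the precision of every comparison between the fractions.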

Other observations

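Other gene families, grouped by their symbols after the data had been seen, are given as values. Over all tested genes 8.14% were called higher in CM and 3.86% lower. Of 80 tested genes and pseudogenes for mitochondrial ribosomal proteins 38 were called higher in CM, with a median log2 difference of 1.23 that became 0.16 with plain library totals. This median lay below that of the respiratory chain subunits, at 2.89. Genes for coenzyme Q synthesis were called higher in 8 of 11 cases (median 2.47), and complex I assembly factors in 4 of 8 (median 1.24). Genes of mitochondrial import were called higher in 5 of 23 cases and mitochondrial carriers in 9 of 41, and both medians, 0.81 and 0.70, fell below 0 with plain library totals, at -0.26 and -0.37. All 3 popeye domain genes, membrane proteins of striated muscle that bind cyclic AMP, were called higher (median 7.34). Ankyrin and SOCS box genes, adaptors of ubiquitin ligases, were called higher in 7 of 15 cases (median 3.21).

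Among S100 calcium-binding proteins S100a1, the form of heart muscle, was called higher and 6 of 11 were called lower. Of 8 Ly6 genes, surface proteins of endothelium and leukocytes, 6 were called lower (median -1.93), as were 6 of 23 C-type lectins. Of 39 proteasome genes 2 were called lower, the immunoproteasome subunits Psmb8 and Psmb9, where 3.86% of all tested genes were. The family's median was 0.078, or -0.99 with plain library totals. Tubulins were split, with Tuba4a and Tuba8 called higher and Tubb6 and Tuba1a lower. Of 47 genes with symbols that begin with Kcn 12 were called higher and 2 lower.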
